A study of Homo sapiens with 12 samples.

Results

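The genes described here are 34 components of B-cell receptor signalling, measured as transcripts in REC1, an established human mantle cell lymphoma line. They were chosen by name, from the receptor to its effectors, and their Ensembl identifiers were looked up among the 60483 genes of the deposited count table. All 34 were found, and all 34 passed the filter on low counts. Their levels played no part in the choice of names, but the list was drawn up with earlier results of these data known.

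The study asked whether blocking the chemokine receptor CXCR4 adds to other drugs in B-cell lymphoma models. REC1 cells were exposed to DMSO (the vehicle), to ibrutinib (a covalent inhibitor of the kinase BTK), to SPX5551 (named pol5551 in the column headers, a CXCR4 antagonist) or to ibrutinib and SPX5551 together, called the combination below. A single library was made for each treatment after 4, 8 and 12 h, which gave 12 libraries of poly(A) RNA with 19336303 to 28934030 counts each. All cells came from this single line, kept in serum and antibiotics, with doses not given in the sources used here.

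The labels disagree on which column belongs to which sample: headers of the deposited columns match the titles and treatments, while the free-text descriptions name, for each sample, a column whose header gives the same time and a different treatment. All values below follow the headers, and the closing section gives the members under the descriptions. Across 21 genes that respond early to the B-cell receptor, the median log2 difference of ibrutinib-exposed minus unexposed libraries under the headers came to -1.17 for the 4 h, -0.75 for the 8 h and -1.38 for the 12 h libraries. Across genes, the nearest library to that of ibrutinib at 8 h was DMSO at 12 h (r = 0.992), and the nearest to that of SPX5551 at 12 h was SPX5551 at 8 h (r = 0.992). The 4 h SPX5551 library was as near to SPX5551 at 8 h as to DMSO at 4 h (r = 0.991 for both). Calls that changed without the first 2 of these libraries are given beside the results, and those that changed without any single library follow them. Markers of the labelled cell type were present: summed B-cell markers held 2890 to 4091 CPM (counts per 1000000 counts) and CCND1, the cyclin D1 gene of mantle cell lymphoma, 1272 to 1759 CPM, whereas HLA-DRA stayed at or under 0.175 CPM and CD5 at or under 0.694 CPM. Myeloid markers summed to at most 2.04 CPM, with FCGR3A, S100A8 and S100A9 at 0 counts. T-cell markers summed to at most 10.0 CPM, and stromal and epithelial markers, of which PECAM1 was the largest, to at most 50.7 CPM.

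As background, the B-cell receptor is a surface immunoglobulin that signals through the paired chains CD79A and CD79B. When antigen clusters the receptor, Src-family kinases such as LYN phosphorylate these chains, SYK docks on them, and the adaptor BLNK brings BTK to phospholipase PLCG2. The resulting second messengers release calcium, which activates NFAT factors, and turn on protein kinase C beta, which starts the route to NF-kappaB that runs through BCL10 and MALT1. Inhibitory receptors such as CD22, CD72 and FCGR2B recruit the phosphatases PTPN6 (SHP-1) and INPP5D (SHIP-1), which hold the pathway back. In mantle cell lymphoma this pathway is often active, and BTK is a drug target.

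The results turn most on 5 members, CR2, FYN, PTPN6, DOK3 and NFATC1, which were lower under the combination than in DMSO. They are shown by the sequence around their most upstream listed start, so that the genes read out together can be seen side by side. Each sequence runs from 250 bases before to 50 bases after a transcript start (RefSeq, GRCh38.p14), 5′ to 3′ on the gene's strand, and capitals mark matches to the motifs named after the sequences.
CR2, chr1:207454078-207454377, plus strand: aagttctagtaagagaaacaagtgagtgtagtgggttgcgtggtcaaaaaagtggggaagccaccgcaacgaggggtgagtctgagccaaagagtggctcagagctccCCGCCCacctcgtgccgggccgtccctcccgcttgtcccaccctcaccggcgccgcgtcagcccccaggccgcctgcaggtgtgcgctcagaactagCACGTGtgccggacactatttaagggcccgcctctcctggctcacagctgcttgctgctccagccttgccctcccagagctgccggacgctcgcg
FYN, chr6:111873403-111873702, minus strand: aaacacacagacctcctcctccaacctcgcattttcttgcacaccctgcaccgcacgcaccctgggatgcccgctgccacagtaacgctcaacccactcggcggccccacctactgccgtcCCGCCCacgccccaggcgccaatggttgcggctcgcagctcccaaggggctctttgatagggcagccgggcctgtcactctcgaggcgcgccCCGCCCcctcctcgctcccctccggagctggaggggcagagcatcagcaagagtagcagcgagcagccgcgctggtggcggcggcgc
PTPN6, chr12:6946327-6946626, plus strand: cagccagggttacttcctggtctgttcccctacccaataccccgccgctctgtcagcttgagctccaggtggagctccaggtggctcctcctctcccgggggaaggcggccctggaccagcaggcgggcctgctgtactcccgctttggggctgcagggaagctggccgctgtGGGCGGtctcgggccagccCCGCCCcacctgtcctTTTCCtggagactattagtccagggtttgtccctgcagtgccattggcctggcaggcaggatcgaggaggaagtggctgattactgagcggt
DOK3, chr5:177511051-177511350, minus strand: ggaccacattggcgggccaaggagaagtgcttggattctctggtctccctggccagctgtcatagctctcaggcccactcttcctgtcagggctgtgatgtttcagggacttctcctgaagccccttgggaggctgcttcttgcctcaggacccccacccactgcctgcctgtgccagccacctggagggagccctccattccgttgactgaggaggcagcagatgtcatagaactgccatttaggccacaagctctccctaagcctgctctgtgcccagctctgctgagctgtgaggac
NFATC1, chr18:79395680-79395979, plus strand: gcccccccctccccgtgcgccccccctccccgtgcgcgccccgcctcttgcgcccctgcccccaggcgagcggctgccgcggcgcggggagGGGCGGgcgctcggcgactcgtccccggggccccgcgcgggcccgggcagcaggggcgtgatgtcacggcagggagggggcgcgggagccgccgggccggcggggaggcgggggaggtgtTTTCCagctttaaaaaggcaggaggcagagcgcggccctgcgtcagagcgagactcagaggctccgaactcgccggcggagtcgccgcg
Motifs were searched on both strands: the GC box (GGGCGG), the NFAT core (GGAAA), AP-1 (TGANTCA), the E-box (CACGTG) and the octamer (ATGCAAAT), and matches to different motifs could overlap. The CR2 window held 1 GC box and 1 E-box, that of FYN 2 GC boxes, that of PTPN6 2 GC boxes and 1 NFAT core, that of NFATC1 1 GC box and 1 NFAT core, and that of DOK3 none of them. Windows at other listed starts, not shown, differed. Another DOK3 window held 1 NFAT core and 1 E-box, another of NFATC1 6 GC boxes and 1 NFAT core, and another of PTPN6 1 GC box. Of the other FYN windows, 1 held 8 GC boxes, 1 held 2 NFAT cores and 1 held none. Over all 35116 windows of the same length, 45.0% held a GC box, 61.2% an NFAT core, 7.71% an AP-1 motif, 7.26% an E-box and 1.77% an octamer. Windows of 28 members were searched, 48 in all, of which 26 held a GC box, 30 an NFAT core, 1 an AP-1 motif, 4 an E-box and 1 an octamer. These matches describe letters only and say nothing of binding.

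Levels were compared between genes as CPM per kilobase of the longest annotated transcript (GENCODE release 29), after scaling libraries by the trimmed mean of M values (TMM). All CPM below are scaled in this way. The signalling chains of the receptor stood far above the other members, with CD79A at 777 ± 130 CPM per kilobase (mean ± SD over 12 libraries) and CD79B at 478 ± 81.9. The lowest library of CD79B lay at 378, above the highest library of the next gene in order, PTPN6, at 202. The coreceptor CR2 (CD21, the receptor for complement fragment C3d) had 34.3 ± 12.4, and CD81, the tetraspanin that holds the coreceptor complex together, 20.4 ± 3.10.

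Among the kinases BTK was highest by this measure, at 116 ± 12.4 CPM per kilobase of the longest transcript, and BLK lowest, at 42.8 ± 8.77. LYN, SYK and FYN lay between them at 89.0, 77.1 and 61.9. The phosphatases ran from PTPN6 (153 ± 30.5) over PTPRC (107 ± 22.3; CD45, which frees Src kinases from their inhibitory phosphate) to INPP5D (54.0 ± 14.2). Of the adaptors, PIK3AP1 (BCAP, which links the receptor to PI3 kinase) was highest at 81.5 ± 13.3 and DOK3, an adaptor that recruits INPP5D, lowest at 10.6 ± 2.65. Of the 3 inhibitory receptors, CD22 had 28.6 ± 5.99, CD72 12.6 ± 2.58 and FCGR2B 6.11 ± 0.619. FCGR2B has a near-identical copy, FCGR2C, so its counts are uncertain.

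In the enzyme group downstream, PRKCB (protein kinase C beta) was highest at 30.8 ± 5.33 CPM per kilobase and PIK3R1, the regulatory subunit of PI3 kinase, lowest at 8.61 ± 1.57. MALT1, the protease of the NF-kappaB arm, had 15.8 ± 1.93 and its partner BCL10 3.60 ± 0.410. Of the last group RAC2, a GTPase of blood cells, was highest at 113 ± 12.2, and the calcium-regulated factors NFATC1 and NFATC2 had 16.3 ± 3.20 and 2.17 ± 0.335. RASGRP3, an exchange factor for RAS, was lowest of all members at 0.0920 ± 0.0275, on 4 to 14 counts per library.

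Neighbours in the order of levels were compared by range and not within each library, so overlap does not make them inseparable. Most neighbours had ranges over the 12 libraries that overlapped. The exceptions were CD79B above PTPN6, FCGR2B above BCL10, BCL10 above NFATC2, and NFATC2 above RASGRP3. With the merged length of all exons in place of the longest transcript, the order changed little (Spearman's rho = 0.97 across the 34 genes, which are not independent replicates). Even so, LYN moved from place 7 to 3, SYK from 9 to 4 and BTK from 4 to 6. Among the kinases LYN (83.6) and SYK (74.1) then lay above BTK (70.2), so the highest kinase depends on the length used.

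**Figure D1:**
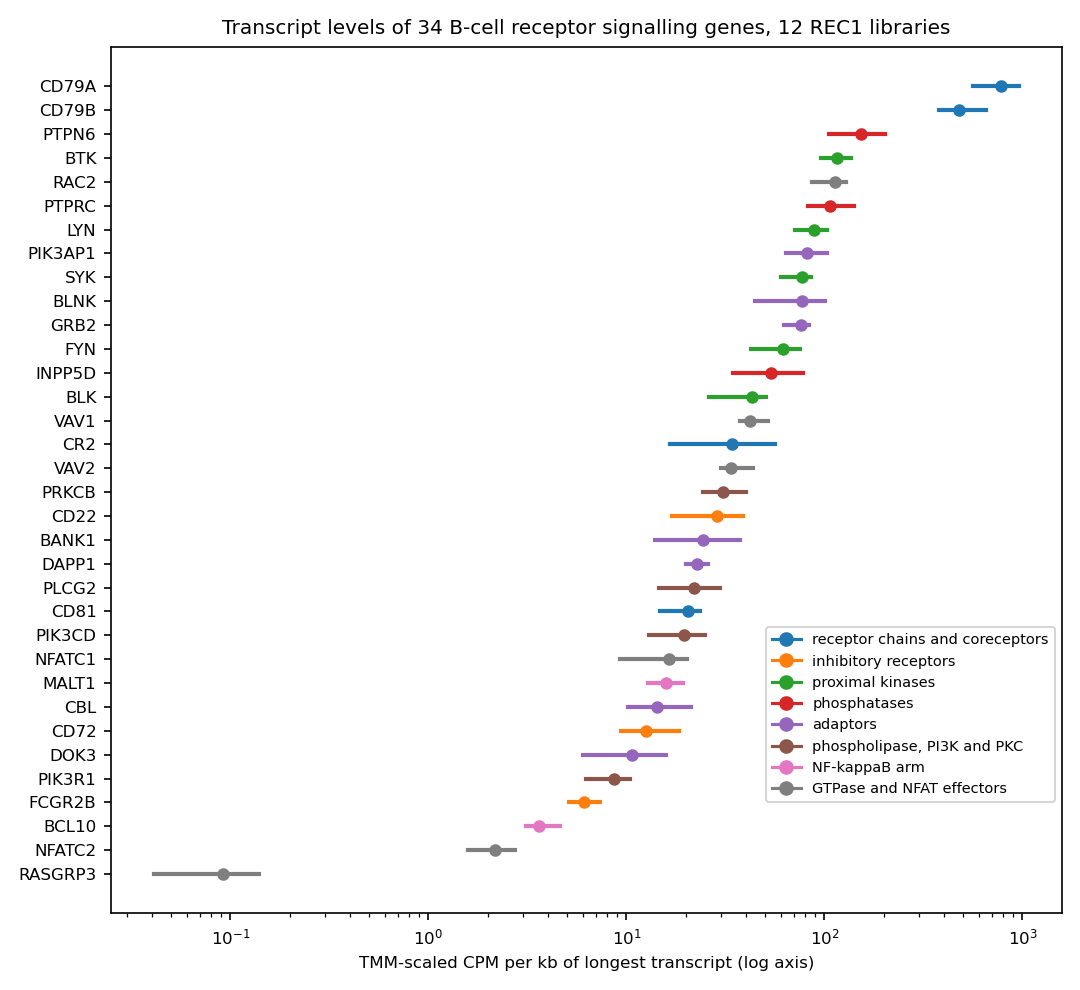
Level of each of the 34 genes in TMM-scaled CPM per kilobase of the longest transcript, on a log axis; points are means and bars run from the lowest to the highest of 12 libraries, coloured by role. CD79A and CD79B lie at the top, RASGRP3 lies far below the rest at 0.0920, and most neighbours overlap.

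Within each gene the libraries differed by up to 3.39-fold. The largest ratios of the highest to the lowest library were those of CR2 (3.39), RASGRP3 (3.38), BANK1 (2.67) and DOK3 (2.65), and the smallest were those of DAPP1 (1.30) and GRB2 (1.33). On the log2 scale, the combination library at 4 h lay lowest over the members, with a median deviation of -0.30 from each gene's mean and 9 of 34 members above their mean. The DMSO library at 12 h lay highest, with a median deviation of 0.20 and 27 of 34 above the mean.

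**Figure D2:**
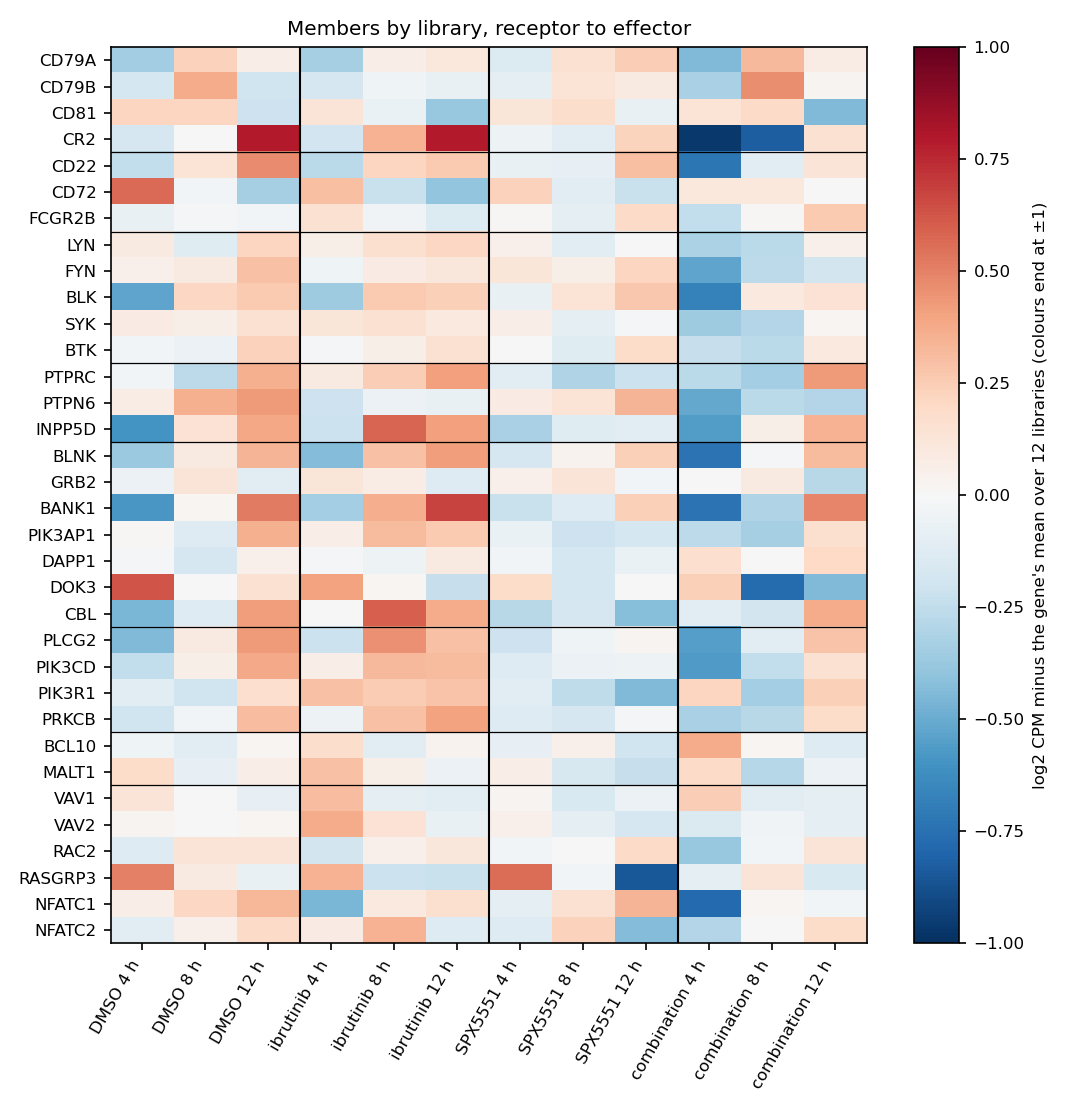
Deviation of each gene from its own mean over the 12 libraries (log2 CPM; colours end at -1 and 1), with genes ordered from receptor to effector and libraries by treatment and time. The combination library at 4 h is mostly below the mean, and CR2 spans from the lowest values in the combination at 4 and 8 h to the highest in DMSO and ibrutinib at 12 h.

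Treatments were compared with edgeR's quasi-likelihood F-test over all 14412 genes kept, with time as an additive term, which makes the 3 times serve as the replicates of a treatment. A gene passed when its Benjamini-Hochberg adjusted p over all these genes was under 0.05, and fold changes are log2 values ± SE from that fit. Nothing states that the samples came from separate cultures, and these p-values measure only the spread between the libraries. The comparisons share libraries (DMSO, or the combination), so they are not independent of each other.

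The main question was what the combination changed relative to DMSO. Of the 34 members 5 were lower and none was higher: CR2, FYN, PTPN6, DOK3 and NFATC1. These belong to 5 different roles, from coreceptor to transcription factor, and they fell to between 0.594 and 0.728 of the DMSO level. Both chains of the receptor, CD79A (log2 fold change 0.00 ± 0.10) and CD79B (0.06 ± 0.12), did not pass. In edgeR with all libraries neither did any of LYN, BLK, SYK or BTK, although SYK and LYN passed under alternatives given below. Of all genes tested, 9.57% passed in this comparison, 5.41% lower and 4.16% higher; the members' share was 14.7%.

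CR2 lies on chromosome 1 (207454230 to 207489895, hg38, plus strand). It had 122, 137 and 237 CPM in DMSO, 119.6, 174 and 238 CPM with ibrutinib, 132, 126 and 159.9 CPM with SPX5551 and 70.2, 77.1 and 152 CPM with the combination, at 4, 8 and 12 h in this and all such lists. At each time the combination library was the lowest, but CR2 also climbed with time, so the ranges of the groups overlapped. Its log2 fold change against DMSO was -0.75 ± 0.14 (SE; adjusted p = 0.00340, edgeR).

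FYN, a Src-family kinase on chromosome 6 (111660332 to 111873452, minus strand), had 230.2, 236 and 272 CPM in DMSO, 216, 236 and 240.5 CPM with ibrutinib, 242, 231 and 257 CPM with SPX5551 and 155, 185 and 196 CPM with the combination. Every combination library lay below every other library. The log2 fold change against DMSO was -0.47 ± 0.09 (adjusted p = 0.00374, edgeR).

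PTPN6 encodes SHP-1, the phosphatase that acts for CD22 and CD72, and lies on chromosome 12. It had 381, 464 and 487 CPM in DMSO, 313, 348 and 344 CPM with ibrutinib, 383, 399 and 457 CPM with SPX5551 and 254, 299.7 and 295 CPM with the combination. All 6 libraries with ibrutinib lay below all 6 without it, and the combination libraries lay lowest. With a log2 fold change of -0.65 ± 0.08 (adjusted p = 3.15e-04, edgeR), it had the smallest adjusted p of the members against DMSO.

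DOK3 had 36.5, 23.5 and 26.2 CPM in DMSO, 31.1, 23.9 and 20.1 CPM with ibrutinib, 26.8, 20.8 and 23.6 CPM with SPX5551 and 27.9, 13.8 and 17.4 CPM with the combination. It was lower under the combination at each time, although the groups overlapped, and its log2 fold change was -0.57 ± 0.13 (adjusted p = 0.0117, edgeR). NFATC1, a calcium-regulated transcription factor on chromosome 18, had 80.5, 88.9 and 96.7 CPM in DMSO, 56, 82.2 and 85.8 CPM with ibrutinib, 72, 85.4 and 97.7 CPM with SPX5551 and 44.8, 78.1 and 75.4 CPM with the combination. Its combination libraries lay below all DMSO libraries, with the widest gap at 4 h, and its log2 fold change was -0.46 ± 0.11 (adjusted p = 0.0168, edgeR). NFATC1 no longer passed without the 4 h DMSO library (adjusted p = 0.107) or without the 4 h combination library (0.0897), whereas the other 4 passed whichever library was left out. Without the whole 4 h time point FYN (adjusted p = 0.0848) and NFATC1 (0.240) did not pass, and without 8 h DOK3 did not (0.0826).

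**Figure D3:**
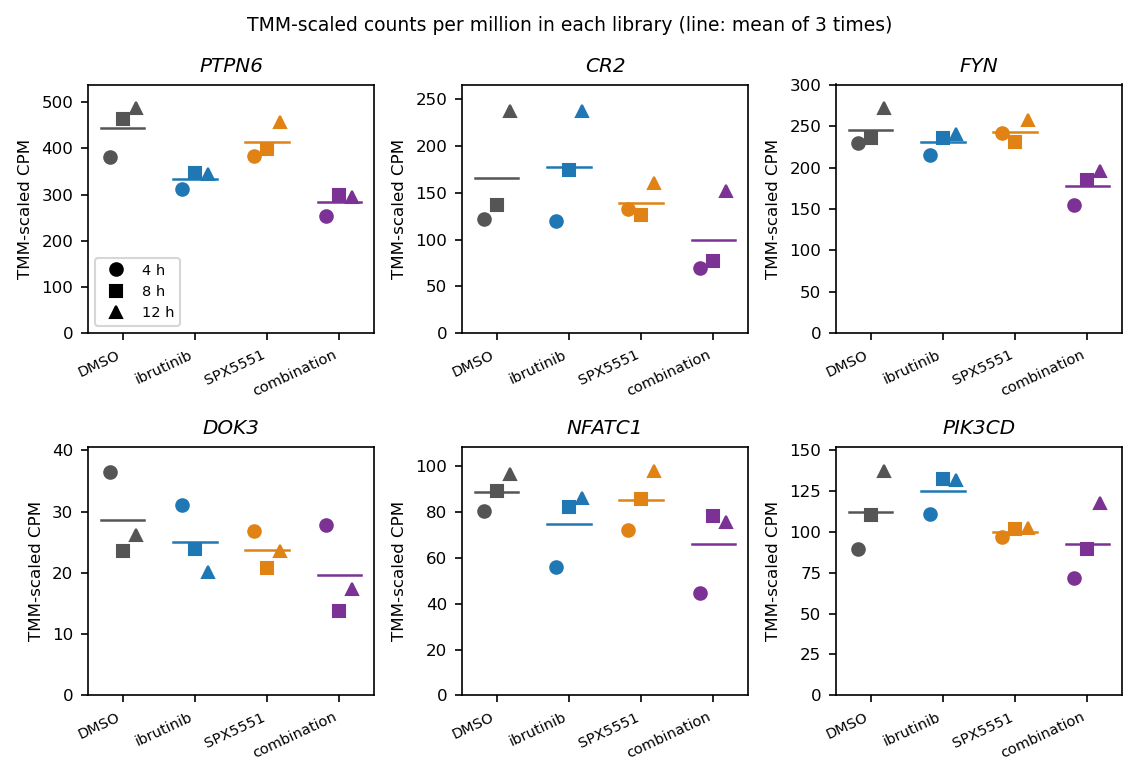
TMM-scaled CPM of 6 members in each library, by treatment, with symbols for 4, 8 and 12 h and lines at the mean of the 3 times. The combination libraries of FYN (155 to 196 CPM) lie below those of the other treatments, and PTPN6 is lower in both groups that contained ibrutinib.

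Near the threshold against DMSO stood CD22, at -0.35 ± 0.11 (adjusted p = 0.0510), and SYK, at -0.30 ± 0.09 (adjusted p = 0.0565, edgeR). SYK, the kinase that docks on the phosphorylated receptor, had 407, 400.1 and 426 CPM in DMSO, 418, 426 and 412 CPM with ibrutinib, 402, 359.7 and 379.5 CPM with SPX5551 and 300.4, 313 and 389.9 CPM with the combination, and its combination libraries lay below those of DMSO. The groups also did not overlap in FYN, PTPN6, NFATC1 and VAV2, 5 members in all, or 14.7% against 11.5% of all genes tested. Over the members the median log2 fold change was -0.13, with 26 of 34 below 0, beside 0.02 over all genes. With the libraries of 8 h ibrutinib and 12 h SPX5551 left out, 10 members passed, all lower (17.4% of all genes), namely the 5 above with CD22, SYK, LYN, PIK3AP1 and PIK3CD. Among all genes called, 43.5% were higher after TMM scaling and 69.8% after scaling by library size only, which left 5 members called, all lower, and 21 of 34 below 0.

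The next comparison set the combination against ibrutinib alone, both of which contained ibrutinib. It had 4 members lower and none higher: CR2, FYN, PIK3CD and PRKCB. CR2 had the largest difference, at -0.86 ± 0.14 (adjusted p = 0.00481, edgeR), which brings it to 0.550 of its level with ibrutinib. FYN differed by -0.37 ± 0.09 (adjusted p = 0.0224). Of all genes, 5.49% passed, 3.39% lower and 2.1% higher, and the share of the members was 11.8%.

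PIK3CD, the catalytic subunit of PI3 kinase delta, had 89.3, 109.9 and 137 CPM in DMSO, 111, 132 and 131 CPM with ibrutinib, 96.4, 101 and 102 CPM with SPX5551 and 71.5, 89.1 and 117 CPM with the combination. The combination lay below ibrutinib at each time, while the groups overlapped, and the log2 fold change was -0.45 ± 0.11 (adjusted p = 0.0289, edgeR). PIK3CD overlaps CLSTN1 on the opposite strand. PRKCB had 212, 239.6 and 302 CPM in DMSO, 236, 299 and 322 CPM with ibrutinib, 223, 217 and 239.8 CPM with SPX5551 and 194, 201 and 276 CPM with the combination. It was lower than with ibrutinib at each time, again with overlap, at -0.36 ± 0.10 (adjusted p = 0.0450).

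CR2 passed this comparison whichever single library was left out. FYN was lost without the ibrutinib library of 4 h (adjusted p = 0.0925), 8 h (0.137) or 12 h (0.0523) or the combination library of 4 h (0.105) or 8 h (0.0616). PIK3CD was lost without the 4 h ibrutinib (0.112), 8 h ibrutinib (0.158), 8 h SPX5551 (0.0518), 4 h combination (0.133) or 8 h combination (0.144) library. PRKCB was lost without the 4 or 8 h DMSO library (0.0656 and 0.0702), any ibrutinib library (0.0894, 0.259 and 0.0931 at 4, 8 and 12 h), the 8 h SPX5551 library (0.0721) or the 4 or 8 h combination library (0.134 and 0.223). The number of members called fell to 1 without the 4 or 8 h library of ibrutinib (0.575% and 0.519% of all genes). It was also 1 without the 4 or 8 h library of the combination (1.45% and 0.732%). It fell to 2 without the 12 h ibrutinib or 8 h SPX5551 library (2.62% and 3.59%). It rose to 7, 8 and 9 without the 4 h SPX5551, 12 h SPX5551 and 12 h combination library (6.67%, 8.43% and 4.40%). Without the 4 h or the 8 h time point no member passed (CR2 at 0.0748 and 0.199), beside 0.0136% and 0.0415% of all genes. Without 12 h 15 did, beside 11.3% of all genes. In a fit of only the 6 libraries compared, FYN (0.0547) and PRKCB (0.0747) did not pass.

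Over the members, the median log2 fold change of the combination against ibrutinib was -0.23, with 26 of 34 below 0, beside 0.01 over all genes. At an unadjusted p under 0.05 there were 17 members, beside 23.5% of all genes. The groups did not overlap in 5 members (LYN, FYN, SYK, PTPN6 and PIK3R1), beside 13.4% of all genes. Spearman's rho between this fold change and transcript length was -0.33 over all genes and -0.35 among the members, and the part of length in the result was not tested further than by removing the trend with length and GC content. With that trend removed 7 members passed, beside 8.60% of all genes, and PRKCB (-0.18, adjusted p = 0.0916) no longer did. With the libraries of 8 h ibrutinib and 12 h SPX5551 left out, CR2 (-0.71), FYN (-0.34) and PIK3CD (-0.39) still passed and PRKCB did not (adjusted p = 0.0900; 4.02% of all genes passed). Among all genes called, 38.2% were higher after TMM scaling and 63.1% after scaling by library size only, under which PIK3CD (adjusted p = 0.0654) and PRKCB (0.0925) did not pass.

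Set against SPX5551 alone, the combination had 4 members lower and none higher: CR2 (-0.57 ± 0.14, adjusted p = 0.0206), FYN (-0.45 ± 0.09, 0.00678), PTPN6 (-0.55 ± 0.08, 0.00233) and NFATC1 (-0.39 ± 0.11, 0.0435, edgeR). Of all genes, 7.24% passed, 3.97% lower and 3.27% higher. Each of the 4 was lower at all 3 times, and in FYN and PTPN6 the groups did not overlap. DAPP1, an adaptor that binds PI3 kinase products, was the third member without overlap (17.3% of all genes). It was higher with the combination, with 66.9 to 76.6 CPM against 59.1 to 65.4 CPM, and did not pass (0.21 ± 0.08, adjusted p = 0.105). DAPP1 did pass, higher, by library size only (0.28, adjusted p = 0.0463, edgeR), beside 8.77% of all genes. The same held with the length and GC trend removed (0.26, 0.0196), beside 12.5%. CBL passed, higher, without the filter on low counts (0.31, 0.0441), beside 5.55% of the genes then tested.

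FYN and PTPN6 passed against SPX5551 whichever library was left out. CR2 was lost without the SPX5551 library of 4 h (adjusted p = 0.0739) or 8 h (0.0772) or the combination library of 4 h (0.108) or 8 h (0.0615), and NFATC1 without the 4 or 12 h ibrutinib library (0.0607 and 0.0559), any SPX5551 library (0.0998, 0.0714 and 0.0904 at 4, 8 and 12 h) or the 4 or 12 h combination library (0.186 and 0.102). Without the 4 h time point none of the 4 passed, with PTPN6 nearest at 0.0588, beside 0.879% of all genes. The count fell to 2 without the 4 or 8 h SPX5551 or the 4 h combination library (7.65%, 2.34% and 3.52% of all genes). Among all genes called, 45.2% were higher after TMM scaling and 68.9% after scaling by library size only, under which NFATC1 did not pass (adjusted p = 0.0788). NFATC1 did not pass either in a fit of only the 6 libraries compared (0.0912) or without 12 h (0.0902), nor CR2 without 8 h (0.0925). With the 8 h ibrutinib and 12 h SPX5551 libraries both left out, the 4 passed and CD22 did too (-0.35, adjusted p = 0.0454), beside 7.78% of all genes.

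**Figure D4:**
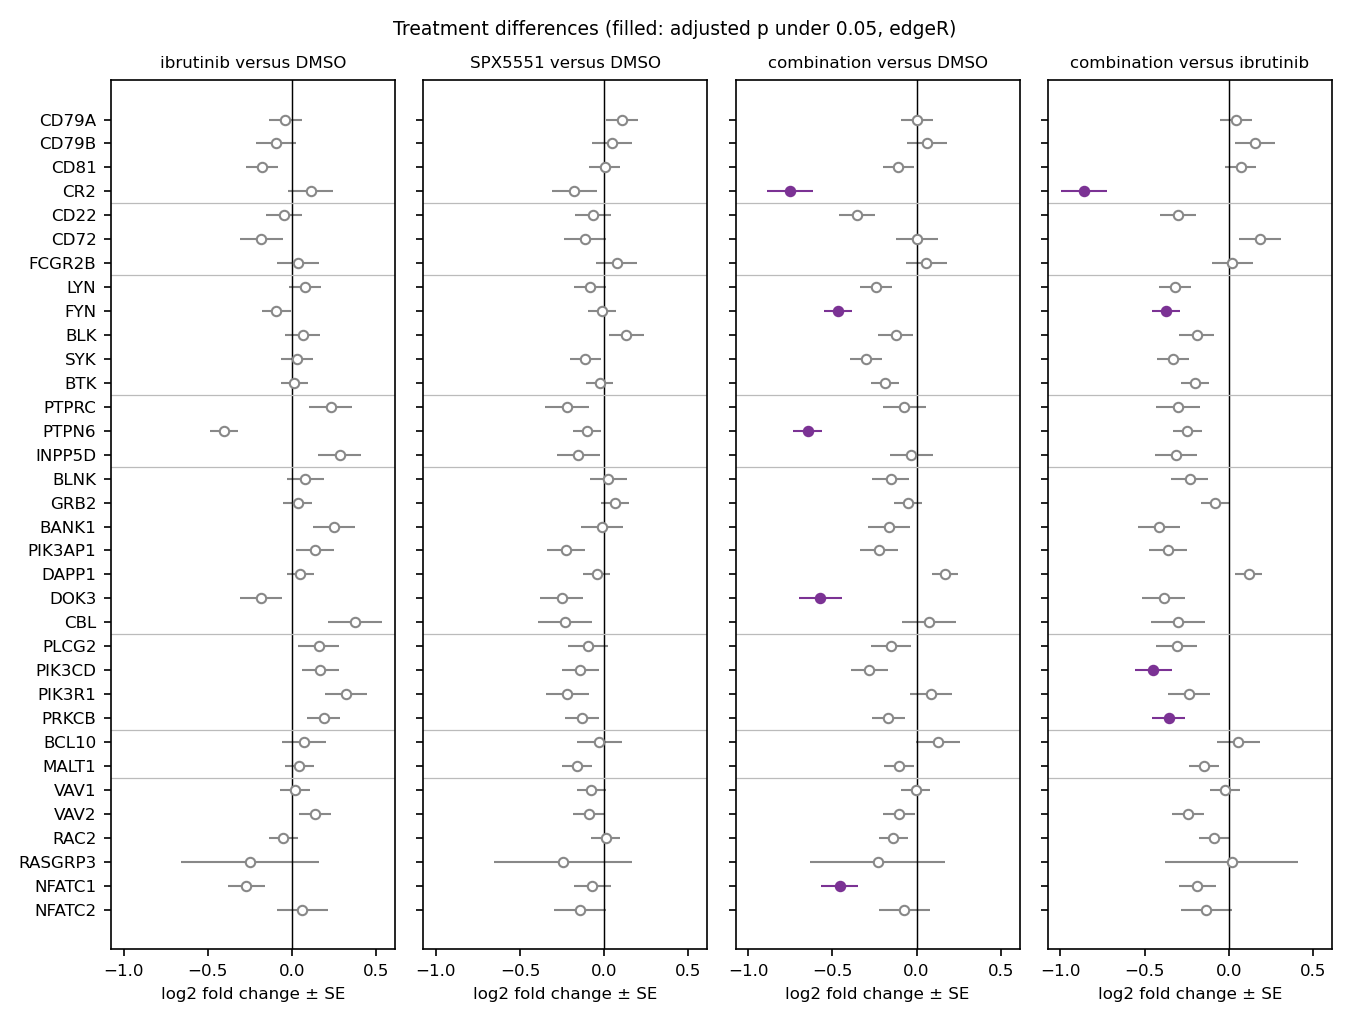
Log2 fold changes ± SE of the 34 members in 4 treatment comparisons, filled where the adjusted p was under 0.05 (edgeR); horizontal lines separate the roles. No member is filled for ibrutinib or SPX5551 against DMSO, 5 are filled for the combination against DMSO and 4 for the combination against ibrutinib, all to the left of 0.

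Ibrutinib alone was then set against DMSO. No member passed in edgeR (0.104% of all genes did, all lower), with 5 at an unadjusted p under 0.05 (11.02% of all genes) and 1 passing in DESeq2, 0 in limma-voom and 0 in limma on the deposited log2 CPM. The member nearest to the threshold was PTPN6, at -0.40 ± 0.08 (unadjusted p = 2.05e-04, adjusted p = 0.147), whose 3 ibrutinib libraries lay below the 3 of DMSO. With the libraries of 8 h ibrutinib and 12 h SPX5551 left out, PTPN6 passed (-0.42, adjusted p = 0.0374; 0.287% of all genes). Without the filter on low counts PTPN6 (-0.39, 0.00906) and CBL (0.39, 0.0247) passed, beside 0.671% of the genes then tested. BTK itself, the target of ibrutinib, had 314, 307 and 376 CPM in DMSO, 316, 332 and 355 CPM with ibrutinib, 320.2, 294 and 363 CPM with SPX5551 and 273, 265 and 341 CPM with the combination. Its ibrutinib and DMSO values overlapped, with a log2 fold change of 0.02 ± 0.08 (adjusted p = 0.954). The other members at an unadjusted p under 0.05 were CBL (0.38), PIK3R1 (0.32) and INPP5D (0.28) above 0 and NFATC1 (-0.27) below 0, each with an adjusted p of 0.452.

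The median over the members for ibrutinib against DMSO was 0.05, with 23 of 34 above 0, beside 0.01 over all genes. The groups did not overlap in PTPN6 and PIK3R1, 2 members, beside 6.02% of all genes. This fold change went with transcript length (Spearman's rho = 0.43 over all genes and 0.56 over the 34 members), and the part of length was not tested for members that did not pass. By library, rho between each gene's deviation from its mean and length was 0.41 in 8 h ibrutinib, beside -0.40 to -0.30 in the other 8 h libraries. It was -0.38 in 12 h SPX5551, beside 0.24 to 0.37 in the other 12 h libraries, and -0.20 to 0.17 at 4 h. How far single libraries carry the length trends of the treatment comparisons was not tested.

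A wider comparison set the 6 libraries with ibrutinib, alone or combined, against the 6 without it, with time and SPX5551 as terms. In it PTPN6, FYN and NFATC1 were lower, and CBL and PIK3R1 were higher. Of all genes 13.7% passed, 7.14% higher and 6.58% lower, and the share of the members was 14.7%. PTPN6 had 254 to 348 CPM with ibrutinib (median 306) and 381 to 487 CPM without (median 428), and it was lower in 6 of 6 pairs of the same time and SPX5551 exposure. Its log2 fold change was -0.47 ± 0.06 (adjusted p = 3.33e-04, edgeR), and it was the only member without overlap between the groups, beside 0.853% of all genes. FYN (-0.27 ± 0.07, adjusted p = 0.0261) and NFATC1 (-0.33 ± 0.08, adjusted p = 0.0147) were also lower in 6 of 6 pairs, with overlapping groups. In FYN the pair of ibrutinib and DMSO at 8 h was all but equal, at 235.5 and 235.9 CPM. FYN differed by -0.45 between the combination and SPX5551 and did not pass for ibrutinib alone, so its average need not hold for ibrutinib alone.

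CBL, a ubiquitin ligase that tags activated kinases for removal, had 114, 142 and 209 CPM in DMSO, 156, 237 and 202 CPM with ibrutinib, 129, 139 and 116 CPM with SPX5551 and 144, 137 and 203 CPM with the combination. It was higher with ibrutinib in 4 of 6 pairs, at 0.34 ± 0.11 (adjusted p = 0.0451, edgeR), and it overlaps MCAM on the opposite strand. PIK3R1 had 55.3, 51.7 and 67 CPM in DMSO, 73, 71 and 72.4 CPM with ibrutinib, 55, 49.8 and 43.8 CPM with SPX5551 and 68.9, 46.9 and 70.0 CPM with the combination. It was higher in 5 of 6 pairs, with the 8 h combination library below the 8 h SPX5551 library, at 0.31 ± 0.09 (adjusted p = 0.0263). With the libraries of 8 h ibrutinib and 12 h SPX5551 left out, neither passed (CBL 0.10, adjusted p = 0.501; PIK3R1 0.15, adjusted p = 0.255). PTPN6, FYN and NFATC1 still did, and CR2 passed as well (-0.44, adjusted p = 0.0201), beside 3.50% of all genes.

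PTPN6 and NFATC1 passed for ibrutinib exposure whichever library was left out. FYN was lost without the 8 or 12 h SPX5551 library (adjusted p = 0.0563 and 0.0637) or the 4 or 12 h combination library (0.0698 and 0.0767). CBL was lost without the 4 or 8 h DMSO (0.140 and 0.134), 8 or 12 h ibrutinib (0.160 and 0.0572), 8 or 12 h SPX5551 (0.0907 and 0.157) or 4 or 12 h combination library (0.121 and 0.173). PIK3R1 was lost without the 4 or 8 h DMSO (0.0874 and 0.0737), 8 h ibrutinib (0.0810), 12 h SPX5551 (0.0976) or 4 or 12 h combination library (0.0867 and 0.111). With the 4 or 8 h DMSO or 8 h SPX5551 library left out 3 members passed (7.12%, 5.96% and 5.11% of all genes). Without the 12 h SPX5551, 4 h combination or 12 h combination library 2 did (3.49%, 5.13% and 2.80%). Without the 4, 8 or 12 h time point 1, 2 and 1 members passed, beside 4.57%, 0.574% and 1.25% of all genes. NFATC1 did not pass without 4 h (0.145) or 12 h (0.0824), and FYN, CBL and PIK3R1 did not pass in any of these. Removing the trend with length and GC content left CBL at 0.18 (adjusted p = 0.0633, edgeR) and PIK3R1 at 0.19 (0.0285). In that fit CD81 (-0.34, adjusted p = 0.00156) and DAPP1 (0.16, 0.0458) passed in addition, beside 13.9% of all genes. CD81 also passed there for the combination against DMSO (-0.29, 0.0147) and against SPX5551 (-0.40, 0.00316). CBL did not pass in limma on the deposited log2 CPM (adjusted p = 0.0545). Without time as a term in the fit PTPN6 was the only member to pass (0.201% of all genes). No member then passed in the 3 comparisons of the combination, beside 0.187% (DMSO), 0% (ibrutinib) and 0.0347% (SPX5551) of all genes. Among all genes called, 52% were higher after TMM scaling, 73.1% after scaling by library size only and 41.9% after removal of the trend with length and GC content, and the median of the members was -0.03, 0.02 and -0.05 in these fits.

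Whether this effect differed between times was tested in 1 model with both. No member passed in edgeR (0% of all genes; 1 member, NFATC1, at an unadjusted p under 0.05), and DESeq2 and both limma fits also called 0. For NFATC1 the log2 fold change with ibrutinib came to -0.60 ± 0.11 for the 4 h, -0.12 ± 0.11 for the 8 h and -0.27 ± 0.11 for the 12 h libraries, a difference between times with an unadjusted p of 0.0277 and an adjusted p of 0.999993. PTPN6 had -0.44 ± 0.11, -0.41 ± 0.11 and -0.57 ± 0.11 at the same times.

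SPX5551 alone passed for no member against DMSO in edgeR (0% of all genes passed), with 0 members at an unadjusted p under 0.05 and 0 in DESeq2 and both limma fits. The smallest adjusted p was 0.615, that of DOK3 (-0.25 ± 0.13). The median log2 fold change over the members was -0.09, with 26 of 34 below 0, beside 0.00 over all genes, and no member had groups without overlap, beside 7.31% of all genes. These differences also went with transcript length (rho = -0.35 over all genes, -0.54 over the members). A p that misses the threshold does not show that values did not differ.

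The interaction, which asks whether the combination departs from the sum of both single effects on the log2 scale, passed for no member in edgeR (0% of all genes), DESeq2 or limma, with 4 members at an unadjusted p under 0.05, beside 5.86% of all genes. These were CR2 (-0.69 ± 0.19, unadjusted p = 0.00254, adjusted p = 0.750), FYN (-0.36 ± 0.12, adjusted p = 0.766), BANK1 (-0.40 ± 0.18, 0.839) and BLK (-0.32 ± 0.15, 0.849). All 4 estimates lay below 0. CR2 passed with the libraries of 8 h ibrutinib and 12 h SPX5551 left out (-0.74, adjusted p = 0.0174), where 0.0547% of all genes did. It also passed without the filter on low counts (-0.70, 0.00722; 0.0994% of the genes tested) and without 12 h (-0.99, 0.00620; 0.750%).

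More members passed between 12 or 8 h and 4 h than in any treatment comparison. Over the 4 treatments, 22 of 34 members differed between 12 and 4 h, 17 higher and 5 lower, and 14 between 8 and 4 h, 10 higher and 4 lower. At 12 against 4 h 35.9% of all genes passed, 18.4% higher and 17.5% lower, and the members' share was 64.7%. At 8 against 4 h 26.6% of all genes passed, 13.1% higher and 13.4% lower, beside 41.2% of the members. The median log2 fold change of the members at 12 against 4 h was 0.21, with 24 of 34 above 0, beside 0.00 over all genes. The libraries of a time point were collected at that time, and the labels name no further batch, so time in culture and time under treatment cannot be told apart.

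At the receptor, the 4 values at each time are given for DMSO first, then ibrutinib, SPX5551 and the combination. CD79A had 759, 765, 877 and 709 CPM at 4 h, 1131, 1007, 1070 and 1205 CPM at 8 h and 1009, 1037, 1143 and 1014 CPM at 12 h. Both later times lay above 4 h without overlap, by 0.51 ± 0.08 at 8 h (adjusted p = 5.66e-04) and 0.44 ± 0.08 at 12 h (0.00104, edgeR). CD79B had 531, 535, 561 and 479 CPM at 4 h, 775, 581, 658 and 826 CPM at 8 h and 521, 569, 639 and 612 CPM at 12 h. It was higher at 8 h than at 4 h without overlap (0.42 ± 0.10, adjusted p = 0.00681) and did not pass at 12 h (0.15 ± 0.10). With the trend with length and GC content removed, the differences at 8 h were 0.31 in CD79A (adjusted p = 0.00360) and 0.23 in CD79B (0.0225).

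The coreceptor genes moved apart. CR2 climbed from 70.2 to 132 CPM at 4 h to 152 to 238 CPM at 12 h, without overlap, by 0.84 ± 0.12 (adjusted p = 1.14e-04), and from 8 to 12 h by 0.64 ± 0.12 (adjusted p = 0.0108, edgeR). CD81 had 123, 115, 115 and 116 CPM at 4 h, 123, 101, 119.6 and 120.4 CPM at 8 h and 91.3, 81.1, 100.1 and 77.8 CPM at 12 h. It was lower at 12 h than at 4 h (-0.43 ± 0.08, adjusted p = 9.48e-04) and at 8 h (-0.41 ± 0.08, 0.0163), without overlap in either. With the length and GC trend removed CD81 was also lower at 8 than at 4 h (-0.25, adjusted p = 0.00730, edgeR), beside -0.02 without that removal.

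The inhibitory receptors CD22 and CD72 also moved in opposite directions. CD22 had 77, 75.8, 86.9 and 55.3 CPM at 4 h, 100.4, 106, 86.6 and 84.4 CPM at 8 h and 127, 109.8, 113 and 100.1 CPM at 12 h, and it was higher at 12 than at 4 h without overlap (0.62 ± 0.09, adjusted p = 1.87e-04). CD72 had 37.3, 31, 29.6 and 27.1 CPM at 4 h, 24.6, 21.5, 23.2 and 27.1 CPM at 8 h and 19.9, 19.1, 21.5 and 25.1 CPM at 12 h. It was lower at 12 h without overlap (-0.54 ± 0.11, adjusted p = 0.00145), although the combination libraries stayed between 25.1 and 27.1 CPM. CD22 overlaps an unnamed gene on its own strand and CD72 overlaps TESK1 on the opposite strand, and the strand setting of the counting was not given in the sources used here. FCGR2B did not pass between any times.

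Among the kinases BLK, a Src-family kinase of B cells, rose most. It had 75.9, 85.4, 104 and 68.1 CPM at 4 h, 126, 131, 119.8 and 117 CPM at 8 h and 131, 129, 132 and 121 CPM at 12 h, and stood above 4 h without overlap at 8 h (0.58 ± 0.09, adjusted p = 3.87e-04) and 12 h (0.63 ± 0.09, 1.26e-04, edgeR). BTK was higher at 12 h than at 4 h (0.23 ± 0.07, adjusted p = 0.0190) and than at 8 h (0.27 ± 0.07, 0.0361), in all 4 treatments and without overlap. FYN rose by 0.21 ± 0.07 at 12 against 4 h (adjusted p = 0.0392). FYN did not pass without the filter on low counts (0.0674). LYN and SYK did not pass between any times with all libraries, although LYN did at 12 against 4 h by library size only (0.23, adjusted p = 0.0459).

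All 3 phosphatases were higher at 12 than at 4 h. INPP5D had 182, 238, 220.3 and 187 CPM at 4 h, 304, 412, 253 and 287 CPM at 8 h and 361, 367, 256 and 351 CPM at 12 h, and rose without overlap at 8 h (0.58 ± 0.11, adjusted p = 0.00141) and 12 h (0.68 ± 0.11, 2.95e-04). PTPRC had 552, 601, 522 and 468 CPM at 4 h, 470.1, 667, 457 and 445 CPM at 8 h and 721, 748, 484 and 758 CPM at 12 h. It rose by 0.33 ± 0.11 at 12 against 4 h (adjusted p = 0.0305), in 3 of 4 treatments, since SPX5551 at 12 h stood below SPX5551 at 4 h. PTPN6 rose by 0.24 ± 0.07 (adjusted p = 0.0176, edgeR).

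The adaptors BLNK and BANK1 had the largest increases beside CR2. BANK1, a scaffold that ties LYN to calcium release, had 55.2, 65.2, 70.6 and 49.5 CPM at 4 h, 83.5, 106, 75.6 and 66.9 CPM at 8 h and 118, 132, 97.4 and 116 CPM at 12 h. It rose by 0.95 ± 0.11 at 12 against 4 h (adjusted p = 2.70e-05), 1.93-fold, the smallest adjusted p of the members. BLNK had 103, 99, 119 and 80.0 CPM at 4 h, 142, 164, 137 and 133 CPM at 8 h and 169, 179, 157 and 167 CPM at 12 h, and rose by 0.75 ± 0.10 (adjusted p = 5.15e-05, edgeR); BLNK overlaps ZNF518A on the opposite strand. In both genes 12 and 4 h did not overlap.

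The other adaptors were mixed. DOK3 fell by 0.59 ± 0.11 at 8 h (adjusted p = 0.00120) and by 0.49 ± 0.11 at 12 h (0.00288), without overlap at either. CBL rose by 0.41 ± 0.14 at 12 against 4 h (adjusted p = 0.0321, 3 of 4 treatments). GRB2, the adaptor that couples receptors to RAS activation, had 273, 308, 294 and 285 CPM at 4 h, 311, 299.9, 311 and 302 CPM at 8 h and 263, 259.7, 279 and 234 CPM at 12 h. It was lower at 12 than at 8 h without overlap (-0.24 ± 0.07, adjusted p = 0.0493). With the trend in length and GC content removed, the increase of CBL was 0.22 (adjusted p = 0.0348). PIK3AP1 and DAPP1 did not pass between any times with all libraries, and PIK3AP1 passed at 12 against 4 h without the filter on low counts (0.23, adjusted p = 0.0350) and by library size only (0.31, 0.0355).

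In the enzyme group PLCG2, the phospholipase that BTK activates, had 138, 161, 163 and 128 CPM at 4 h, 199, 258, 182 and 173 CPM at 8 h and 252, 230.5, 191 and 228 CPM at 12 h. It rose without overlap at 8 h (0.45 ± 0.10, adjusted p = 0.00521) and 12 h (0.61 ± 0.10, 4.25e-04, edgeR), and it overlaps an unnamed gene on its own strand. PIK3CD rose by 0.42 ± 0.10 (adjusted p = 0.00321) and PRKCB by 0.39 ± 0.09 (0.00238) at 12 against 4 h, the latter without overlap and at 0.25 with the length and GC trend removed (0.00166). PIK3R1 did not pass between any times with all libraries (0.00 ± 0.11 at 12 against 4 h).

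Downstream, MALT1 had 167, 179.9, 154 and 168 CPM at 4 h, 139, 153, 131 and 121 CPM at 8 h and 154, 141, 125 and 141 CPM at 12 h. It was lower at 8 h (-0.30 ± 0.08, adjusted p = 0.00920) and 12 h (-0.25 ± 0.08, 0.0180, edgeR), without overlap with 4 h. VAV1, an exchange factor for RAC GTPases, had 129, 146, 120.5 and 139.7 CPM at 4 h, 118, 110.3, 106 and 109 CPM at 8 h and 112, 109.7, 113 and 111 CPM at 12 h, and was lower at 8 h (-0.27 ± 0.08, adjusted p = 0.0154) and 12 h (-0.26 ± 0.08, 0.0127), again without overlap. RAC2 had 153, 147, 163 and 128 CPM at 4 h, 183, 173, 167 and 164 CPM at 8 h and 183, 181, 190.3 and 182 CPM at 12 h, and was higher at 8 h (0.22 ± 0.08, adjusted p = 0.0416) and 12 h (0.32 ± 0.08, 0.00412). The 8 h call of RAC2 was lost with the length and GC trend removed (0.07, adjusted p = 0.468) and without the filter on low counts (0.0549), and MALT1 at 12 h was -0.38 with that trend removed (1.19e-04).

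Of the factors, NFATC1 rose by 0.43 ± 0.10 at 8 h (adjusted p = 0.00376) and by 0.51 ± 0.10 at 12 h (8.35e-04, edgeR), both against 4 h. The 8 h value was 0.27 (adjusted p = 0.0293) with the length and GC trend removed. NFATC2, BCL10, VAV2 and RASGRP3 did not pass between any times. With that trend removed VAV2 passed at 8 h (-0.21, adjusted p = 0.0180) and 12 h (-0.28, 0.00216) against 4 h. With RASGRP3 at 4 to 14 counts, a difference in it was hardly detectable at this depth (-0.74 ± 0.36 at 12 against 4 h).

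Between 12 and 8 h only 6 members passed, CR2, BTK, PTPRC and BANK1 higher and CD81 and GRB2 lower, beside 9.08% of all genes (4.41% higher and 4.66% lower) and 17.6% of the members. PTPRC differed by 0.41 ± 0.11 (adjusted p = 0.0359; 0.26 and 0.0647 with the length and GC trend removed, where rho with length was 0.31 over all genes) and BANK1 by 0.50 ± 0.11 (0.0189, edgeR). No call in this comparison held without the 8 or 12 h DMSO library, where 0.183% and 0.393% of all genes passed. The same was true without the 8 or 12 h combination library (0.205% and 0.220%). With the 4 h DMSO library left out 3 members passed (5.19%). Without the 12 h ibrutinib or the 8 h SPX5551 library 2 did (1.85% and 2.71%). Without the 12 h SPX5551 library 10 did (20.9%). Without both the 8 h ibrutinib and the 12 h SPX5551 library 18 members passed, beside 33.6% of all genes. PTPRC then differed by 0.66 (adjusted p = 5.97e-06), and the 12 members added were CD79B, lower at -0.42 (0.00199), and 11 higher, from DAPP1 at 0.22 (0.0381) to CBL at 0.51 (1.84e-04). Among these 11 were LYN (0.34, 0.00375), PIK3AP1 (0.46, 1.40e-04) and PIK3R1 (0.41, 0.00162).

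The same omission gave 25 members at 12 against 4 h (44.0% of all genes), with LYN (0.21, adjusted p = 0.0308), PIK3AP1 (0.32, 9.80e-04) and GRB2 (-0.20, 0.0294) added. At 8 against 4 h it gave 14 (32.1% of all genes), with PIK3R1 added at -0.30 (0.00928) and RAC2 lost (0.0519).

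The groups of a time did not overlap in 16 members for 12 against 4 h (24.1% of all genes), 10 for 8 against 4 h (19.2%) and 3 for 12 against 8 h (7.63%). Of the 22 calls between 12 and 4 h, 15 held whichever library was left out; of the rest, FYN was lost in 9 of 12 cases (at most 0.190), PTPRC in 6 (0.198), CBL in 6 (0.183), BTK in 5 (0.0888), PTPN6 in 4 (0.0875), MALT1 in 3 (0.0745) and VAV1 without the 4 h ibrutinib library (0.0816). Of the 14 calls between 8 and 4 h, 8 held in the same way. RAC2 was lost in 8 cases (at most 0.201), CD72 in 4 (0.104), CD22 (0.0748), CD79B (0.0554) and VAV1 (0.0925) in 2 each. BANK1 was lost without the 4 h combination library (0.0525), where the count fell to 9, beside 16.6% of all genes. Among all genes called at 12 against 4 h, 51.2% were higher after TMM scaling and 67.8% after scaling by library size only, under which MALT1 and VAV1 did not pass (adjusted p = 0.125 and 0.0726). At 12 against 8 h the same shares were 48.6% and 72%, and GRB2 did not pass by library size (0.0897).

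**Figure D5:**
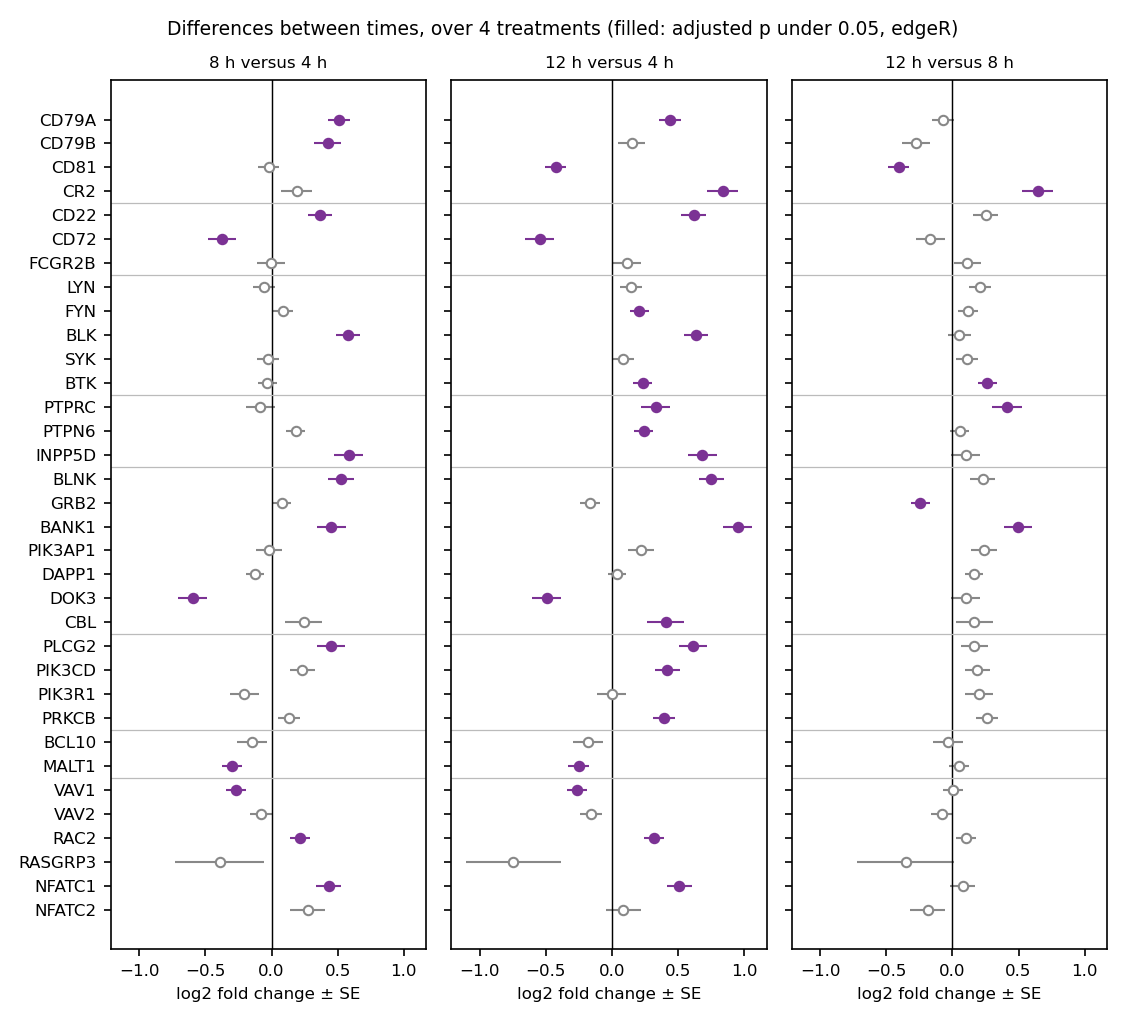
Log2 fold changes ± SE between times over the 4 treatments, filled where the adjusted p was under 0.05 (edgeR), with genes ordered by role. Filled points number 14 at 8 against 4 h, 22 at 12 against 4 h and 6 at 12 against 8 h, and CD81, CD72, DOK3, MALT1 and VAV1 are the members lower at 12 than at 4 h.

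A further 102 genes of the pathway, listed by name, set the members in context, of which 98 were tested. Against DMSO the combination had 17 of these 98 called, 3 higher and 14 lower, and a median log2 fold change of -0.03. Against ibrutinib 9 were called, all lower, and against SPX5551 15, 4 higher and 11 lower. Ibrutinib exposure had 19, 10 higher and 9 lower. In the same order these were 17.3%, 9.18%, 15.3% and 19.4% of the 98, beside 9.57%, 5.49%, 7.24% and 13.7% of all genes. No such gene passed for ibrutinib or SPX5551 alone against DMSO, the interaction or exposure by time (edgeR). At an unadjusted p under 0.05 stood 11.02%, 8.33%, 5.86% and 1.75% of all genes, beside 16, 8, 12 and 1 of these 98.

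Of these, SLA, an adaptor that limits antigen receptor signalling, stood at 18.6, 22.1 and 21.1 CPM under the vehicle and fell to 8.93, 11.6 and 11.2 CPM in the combination libraries. Its log2 fold change was -0.96 ± 0.11 (adjusted p = 9.20e-05, edgeR), without overlap. FCRL4, an inhibitory Fc receptor-like protein of B cells, stood at 65.8, 93.9 and 94.4 CPM under the vehicle and at 32.6, 40.6 and 53.3 CPM in the combination libraries (-1.01 ± 0.11, adjusted p = 9.81e-05). FCRL3 (-0.82 ± 0.12), the adaptor SH3BP2 (-0.61 ± 0.09) and LAIR1, an inhibitory collagen receptor (-0.73 ± 0.13), were lower as well, and the kinase gene MAPK8 (JNK1) was higher (0.53 ± 0.09).

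Set against ibrutinib, the combination was lower in FCRL4 (-0.83 ± 0.11), FCRL3 (-0.81 ± 0.12), SLA (-0.72 ± 0.11), SH3BP2 (-0.48 ± 0.09), VAV3 (-0.61 ± 0.12) and RASGRP1 (-0.62 ± 0.14, adjusted p = 0.0224, the largest of these 6, edgeR). Against SPX5551 it was lower in SLA (-0.76 ± 0.11), FCRL4 (-0.81 ± 0.11), LAIR1 (-0.72 ± 0.13), FCRL3 (-0.59 ± 0.12) and SH3BP2 (-0.44 ± 0.09), and higher in DGKZ, a kinase that removes diacylglycerol (0.45 ± 0.09).

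With ibrutinib exposure, CD40, the costimulatory receptor of B cells, had the smallest adjusted p of these genes, with -0.54 ± 0.08 (0.00126, edgeR). The light chain constant genes IGKC (-0.43 ± 0.09) and IGLC2 (-0.45 ± 0.09) were lower too, where IGLC2 has near-identical neighbours, as were SLA (-0.50 ± 0.10) and LAIR1 (-0.50 ± 0.10). IKBKG, the regulatory subunit of the kinase complex that activates NF-kappaB, was higher (0.41 ± 0.08), and its counts are uncertain because of a near-identical pseudogene.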

How the data were processed

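Poly(A) RNA libraries of REC1 cells were sequenced, 1 for each of 4 treatments at 3 times, per the labels' protocols, which also call the molecule genomic DNA. The authors deposited whole-number counts for 60483 Ensembl genes and a table of log2 CPM. BWA and the hg38 build were used, per the submitters' processing notes, while the counting tool, annotation release, strand setting and doses were not given in the sources used here. Totals per library were 19336303 to 28934030 counts without molecular identifiers, so counting error understates the spread.

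Columns were assigned by header, and 0 columns were left unmapped. Symbols came from a list of gene names, or from GENCODE 29 where that list held none. Genes were kept with filterByExpr by treatment (14412 genes, 99.9% of counts), scaled by TMM and tested with edgeR 4.0.16 in R 4.3.3 (quasi-likelihood F-test, treatment plus time; common biological coefficient of variation 0.101), with Benjamini-Hochberg adjustment over all genes at 0.05. SE was computed as the size of the log2 fold change over the root of its F statistic. Groups were called not overlapping on the TMM-scaled log2 CPM with a prior count of 2. Motif windows came from RefSeq promoter tables. The fit was tested on simulated data.

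Alternatives were DESeq2 1.42.0, limma 3.58.1 (voom, and trend on the deposited log2 CPM), no filter on low counts (at least 1 count), library size scaling, no time term, removal of a length and GC trend, only the libraries compared, the pairing of columns by description, and leaving out each library or time. Leaving out the 8 h ibrutinib and 12 h SPX5551 libraries was chosen after seeing the data. The members, their roles, the other pathway genes and the named genes (each member passing in a comparison, the highest and lowest of each role, BTK, and up to 6 other pathway genes per treatment comparison, by smallest p, with mean log2 CPM of at least 2) were chosen with earlier results of these data known.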

Additional observations from a re-analysis of the deposited data

Results flagged for a closer look

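Within the 4 libraries of a time, or the 6 with or without ibrutinib, 9 of 75 groups tested held a library set apart. Its gap to the rest was larger than the 5% limit of Dixon's test, which chance passes in about 1 of 20 groups of like replicates. These groups mixed treatments or times, so that rate does not apply here, and a flag can be a difference between treatments or times. Groups were tested only for members named with a result. With all 12 libraries, no difference in effect between groups passed in edgeR; the interaction of CR2 passed under the alternatives named with it above.

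The 4 h combination library stood low in CR2, at 70.2 CPM (TMM-scaled) where the other 4 h libraries had 119.6 to 132, and in BTK, at 273 CPM against 314 to 320. In the 12 h SPX5551 library PTPRC had 484 CPM (others 721 to 758), INPP5D 256 CPM (others 351 to 367) and CBL 116 CPM (others 202 to 209). The 8 h ibrutinib library was low in CD81, at 101 CPM (others 119.6 to 123), and high in PTPRC, at 667 CPM (others 445 to 470). Of the unexposed libraries, 12 h DMSO was high in CBL, at 209 CPM (others 114 to 142), and of the exposed ones the 8 h combination was low in PIK3R1, at 46.9 CPM (others 68.9 to 73.0). Of the 9, 5 lay in the 8 h ibrutinib or 12 h SPX5551 library and none in the 4 h SPX5551 library.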

How the results depend on the processing

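Main counts of members called were 0 for ibrutinib against DMSO, 0 for SPX5551 against DMSO, 5, 4 and 4 for the combination against DMSO, ibrutinib and SPX5551, 0 for the interaction, 5 for ibrutinib exposure and 0 for its difference between times, and 14, 22 and 6 for 8 against 4 h, 12 against 4 h and 12 against 8 h. Counts within 1.5 times of these are not repeated, and the cause of each change below was not tested. DESeq2 called 1 member for ibrutinib against DMSO and 10 for the combination against ibrutinib (0.278% and 8.40% of all genes). Without the filter on low counts these became 2 and 13, and the interaction called 1 (0.671%, 4.36% and 0.0994% of the genes then tested). By library size only, the combination against ibrutinib called 2 (4.99%). Without the time term the combination called 0 against DMSO, 0 against ibrutinib and 0 against SPX5551 (0.187%, 0% and 0.0347% of all genes). Ibrutinib exposure then called 1 (0.201%). With the length and GC trend removed these 3 combination counts were 10, 7 and 8 (15.7%, 8.60% and 12.5%). With only the libraries compared, they were 10 against DMSO and 2 against ibrutinib (18.7% and 3.98%). Without 4 h they were 3, 0 and 0 (1.89%, 0.0136% and 0.879% of all genes), and exposure called 1 (4.57%). Without 8 h the combination called 0 against ibrutinib (0.0415%) and exposure 2 (0.574%). Without 12 h ibrutinib against DMSO called 2 (4.61%) and the combination against ibrutinib 15 (11.3%). The interaction then called 1 (0.750%) and exposure 1 (1.25%). With the libraries of 8 h ibrutinib and 12 h SPX5551 left out, ibrutinib against DMSO called 1 (0.287% of all genes). The combination against DMSO then called 10 (17.4%), the interaction 1 (0.0547%) and 12 against 8 h 18 (33.6%).

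Leaving out each library in turn gave 0 to 0 members for ibrutinib against DMSO, SPX5551 against DMSO, the interaction and exposure by time. The combination had 4 to 7 members against DMSO, 1 to 9 against ibrutinib and 2 to 4 against SPX5551. The shares of all genes were 3.84% to 11.3%, 0.519% to 8.43% and 2.34% to 8.90%. Exposure had 2 to 7 members, beside 2.80% to 17.9% of all genes. At 8 against 4 h there were 9 to 16 members (16.6% to 28.4% of all genes). At 12 against 4 h there were 16 to 23 (24.1% to 37.4%), and at 12 against 8 h 0 to 10 (0.183% to 20.9%).

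Pairing columns by the descriptions called 5 members for ibrutinib against DMSO, 4 for SPX5551 against DMSO, 0 for the combination against ibrutinib, 7 against SPX5551, 5 for the interaction and 1 for exposure. Under it ibrutinib against DMSO holds the header libraries of DMSO and the combination (9.57% of all genes called by header). SPX5551 against DMSO holds those of ibrutinib and the combination (5.49%), and the combination against ibrutinib those of SPX5551 and DMSO (0%). Shares of all genes for the counts against SPX5551, for the interaction and for exposure are not at hand. Those counts cannot be set beside all genes. This pairing turned the sign of the combination against DMSO in CR2 (0.57), FYN (0.45), PTPN6 (0.55), DOK3 (0.32) and NFATC1 (0.39). Against SPX5551 it did so in FYN (0.0792), PTPN6 (0.30) and NFATC1 (0.20), while CR2 kept its sign (-0.29). For exposure it did so in FYN (0.27), PTPN6 (0.47), CBL (-0.34), PIK3R1 (-0.31) and NFATC1 (0.33). Only the exposure signs turn by the construction of the pairing, since exposed and unexposed libraries trade places. By header, the combination against DMSO becomes SPX5551 minus the combination, and against SPX5551 it becomes SPX5551 minus ibrutinib. No other alternative turned the sign of a called member. Over the 60 calls of members, DESeq2 and limma-voom kept all 60, limma on the deposited log2 CPM 59, no filter 58, the trend removed 56 and library size 54. Depth limits RASGRP3 alone among the members. The labels give no replicate numbers; each time holds 1 library of every treatment, so the time term already pairs the libraries of a time, and the fits without it are given above.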
